A study of Sus scrofa with 2 samples.

Results

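Molecular chaperones and the folding enzymes of the endoplasmic reticulum (ER) were examined as a group of 100 genes, chosen by gene symbol out of 11938 named genes on the array. The symbols were those of the J proteins (DNAJ), the heat shock proteins (HSP), the chaperonin TRiC (TCP1 and CCT2 to CCT8), the protein disulfide isomerases (PDIA), the prolyl isomerases of the FKBP and cyclophilin (PPIA to PPIH) families, the BAG proteins, calreticulin (CALR), calnexin (CANX) and HYOU1. They were carried by 164 of 43794 probes. By their known location, 27 genes belong to the ER, 62 to the cytosol and nucleus and 11 to mitochondria, and the location of 7 of the 100 is uncertain. The rule itself uses only the symbol of a gene and no measured value. The annotation used here named 26 further symbols of these families on no probe, among them CCT5, CCT6A, CCT8, HSPA1A, HSPA1B, FKBP1A and DNAJC3.

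Chaperones bind unfolded chains and release them in cycles driven by ATP, most often HSP70 with a J protein that delivers the chain and an exchange factor that reloads the nucleotide. In the ER, where secreted and membrane proteins fold, BiP (HSPA5) and GRP94 (HSP90B1) work beside lectins that hold sugar-bearing chains (CALR, CANX) and PDI enzymes that form disulfide bonds. Cumulus and granulosa cells secrete much matrix and hormone, and the oocyte secretes its zona pellucida, so both cell types of a cumulus-oocyte complex (COC) use this machinery. Several ER chaperones are also well known targets of the unfolded protein response (UPR), by which cells adjust folding capacity.

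RNA from 2 single COCs of Large White pigs, named COC7 and COC4 in the labels, was compared on the 2-colour EMPV1 array, a custom Agilent array of long oligonucleotides. The complexes came from mature follicles of slaughterhouse ovaries of gilts, and the labels give no treatment or grade that sets COC7 apart from COC4. COC7 was labelled with Cy5 and COC4 with Cy3 for array 1, and each with the opposite dye for array 2. The same pair of RNAs was thus measured on both arrays, so each COC is 1 sample, no test between them exists, and variation among complexes was not measured.

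The deposited value of a probe is the normalized log2 ratio of both channels on an array, and levels in either COC alone were not analysed here. Each ratio was split into a COC part, the mean of array 1 and of array 2 with its sign turned, and a dye part, the mean of both arrays as deposited. A positive COC part is called the COC7 side and means a higher signal for COC7. A negative one is called the COC4 side. A positive dye part means a higher signal in Cy5, whichever COC carried it. The COC part lies at the same distance from both arrays, and that distance is the size of the dye part. A gene therefore has the same sign on both arrays exactly where its COC part is larger in size than its dye part. The direction of the ratio, Cy5 over Cy3, is likely but not stated, and it was taken from which channel the labels list first. If it is the opposite, COC7 and COC4 change places in every value below, and Cy5 and Cy3 do too. Over all probes the median ratio was 0.0030 on array 1 (SD 0.33) and 0.0014 on array 2 (SD 0.29), and the turned ratios of both arrays had a Pearson r of -0.27 across probes, which share RNA and arrays and are not replicates. Both arrays had the same sign for 37.1% of all probes, so the dye part was the larger one for most.

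Most ER folding genes were on the COC4 side. Of the 27 ER genes, 6 had a COC part above 0 and 21 (77.8%) below 0, with a median of -0.18. Among cytosolic and nuclear genes 29 of 62 (46.8%) were below 0, with a median of 0.011, and among mitochondrial genes 3 of 11 (27.3%) were, with a median of 0.049. Over all named genes 48% were below 0 and the median was 0.0062. The ER median was lower than the cytosolic one by a similar amount on either array: the difference was -0.21 on array 1, -0.20 on array 2 after turning the sign, and -0.19 in the COC part. Against the mitochondrial genes it was -0.23 in the COC part. The median dye part was 0.027 for ER genes, -0.048 for cytosolic and nuclear genes, -0.0054 for mitochondrial genes and -0.0075 for all named genes. Genes of 1 compartment are not replicates of a COC, so these counts describe a pair of RNAs.

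The size of the differences was small. Of the 100 genes, 4 had a COC part of at least 1.5-fold, where 1.93% of all named genes did (0.963% on each side), and 0 reached 2-fold, where 0.151% of all named genes did. The 4 genes were PPIE on the COC7 side and PPIC, HSPA5 and CALR on the COC4 side, and PPIC was the only one past 1.5-fold on each array separately, a limit that 0.41% of named genes passed. With the median of each block of 500 consecutive probes removed, the COC part of PPIC was -0.583, just short of 1.5-fold (0.585 on the log2 scale), and 3 genes passed. On array 1 alone 11 of the 100 genes passed 1.5-fold, against 6.61% of named genes, and on array 2 alone 6 did, against 4.11%. The nearest genes below the limit were DNAJC10, DNAJC11 and HSP90B1, at 1.46-fold, 1.42-fold and 1.41-fold. Signs were the same on both arrays for 43 of the 100 genes, against 38.7% of all named genes. Of these, 18 were on the COC7 side, against 20.3% of named genes, and 25 on the COC4 side, against 18.4%. In the ER class 14 of 27 genes had the same sign on both arrays, 2 of them above 0 and 12 below. The cytosolic and nuclear class had 13 such genes of 62 above 0 and 10 below.

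The 10 core ER folding genes (HSPA5, HSP90B1, the PDIA genes, CALR, CANX and HYOU1) had a median of -0.26, with 8 of them below 0. Calreticulin, the soluble lectin that also buffers ER calcium, had a log2 ratio of COC7 over COC4 of -0.56 on array 1 and -0.65 on array 2, a COC part of -0.61 (1.52-fold lower in COC7) with a dye part of 0.047. The dye part of calreticulin is a mean over its 3 probes, which ran from -0.16 to 0.42. Calnexin, its membrane-bound relative, had -0.23 and -0.54, a COC part of -0.39. Both lectins were thus lower in COC7 whichever dye it carried. PDIA3 (ERp57), the disulfide isomerase that works with these lectins, had -0.27 and -0.47, a COC part of -0.37. GRP94 (HSP90B1), the HSP90 of the ER lumen, had -0.78 and -0.22, a COC part of -0.50 with a dye part of -0.28.

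BiP, the HSP70 of the ER lumen, had the second largest distance from 0 among ER genes but the least agreement between arrays. The turned ratio of HSPA5 was -1.59 on array 1 and 0.33 on array 2, so the COC part of -0.63 (1.55-fold) stood beside a dye part of -0.96, the largest of all 100 genes. The signal of HSPA5 was lower in Cy5 on both arrays, and the arrays did not agree on which COC was higher. PDIA4, another PDI of the ER lumen, had the same pattern at smaller size, with -0.52 on array 1, 0.21 on array 2, a COC part of -0.16 and a dye part of -0.37. The other core genes were close to 0 or above it. PDIA6 had -0.098 and -0.064, a COC part of -0.081 over 8 probes. HYOU1, the HSP110 that exchanges nucleotide on BiP, had 0.12 and -0.19, a COC part of -0.032. PDIA2 had -0.22 and 0.27, a COC part of 0.025. PDIA5 was the only core gene on the COC7 side on both arrays, with 0.48 and 0.030, a COC part of 0.25.

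**Figure D1:**
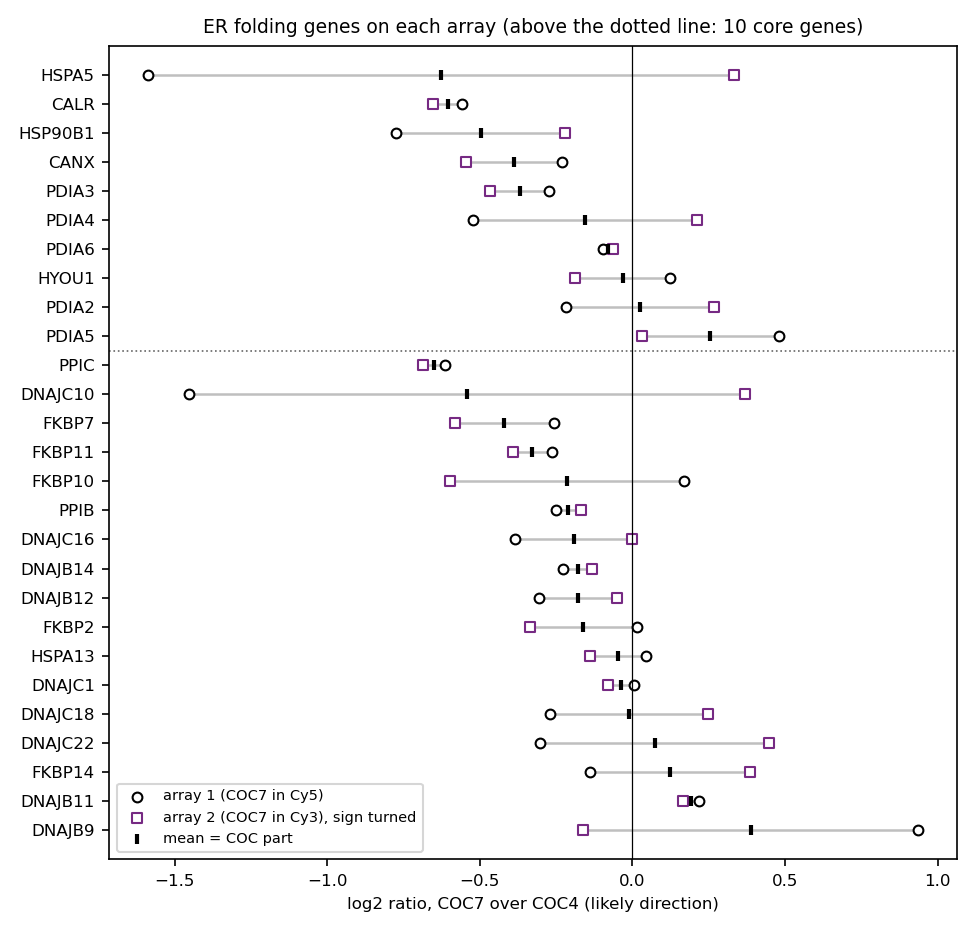
Log2 ratio of COC7 over COC4 for each of the 27 ER genes (down the page, 10 core genes above the dotted line), on array 1 (circles) and on array 2 with the sign turned (squares), with their mean, the COC part (bars). The bars of 21 genes lie below 0, and the widest gaps between circle and square, a measure of the dye part, are those of HSPA5 and DNAJC10.

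The other 17 ER genes had a median of -0.18, with 13 of them below 0. PPIC, a cyclophilin of the secretory pathway, had the most negative COC part of all 100 genes at -0.65 (1.57-fold lower in COC7), with -0.61 on array 1 and -0.69 on array 2. Its dye part was 0.036, and its location in the ER is uncertain. PPIB, the cyclophilin of the ER lumen that acts on collagen, had -0.25 and -0.17 and a COC part of -0.21, and is named here after its values were seen. Of the ER prolyl isomerases of the FKBP family, 4 of 5 were below 0. FKBP7 had -0.26 and -0.58, a COC part of -0.42. FKBP11 had -0.26 and -0.39, a COC part of -0.33. FKBP10, which acts on collagen, had 0.17 on array 1 and -0.60 on array 2, so its COC part of -0.21 was smaller than its dye part of 0.38.

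The 9 ER J proteins were divided, with 3 above 0 and 6 below. DNAJC10 (ERdj5), which reduces disulfide bonds, resembled HSPA5: it had -1.45 on array 1 and 0.37 on array 2, a COC part of -0.54 and a dye part of -0.91. DNAJB9 (ERdj4), an ER co-chaperone known as a target of the UPR, differed in the other direction, with 0.94 on array 1 and -0.16 on array 2, a COC part of 0.39 and a dye part of 0.55. In these genes, as in HSPA5, the dye part was larger than the COC part. DNAJC16, whose location in the ER is uncertain, had -0.38 and -0.0012, a COC part of -0.19. DNAJB14, a membrane co-chaperone, had -0.23 and -0.13, a COC part of -0.18. HSPA13, the second ER gene of the HSP70 family, had 0.045 and -0.14, a COC part of -0.047.

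Genes of a list for ER translocation, glycoprotein and oxidative folding were below 0 nearly as often as the ER folding genes. Of the 27 measured (34 listed), 19 (70.4%) were below 0, against 77.8% of the ER folding genes, and the median of the list was -0.11. As in the ER class, 14 of 27 genes had the same sign on both arrays, 9 of them below 0, against 12 in the ER class. The genes farthest from 0 in that list were on the COC7 side. CRELD2, an ER protein known as a UPR target, had 1.27 on array 1 and 0.50 on array 2, a COC part of 0.88. SDF2L1, an ER protein that works with BiP and J proteins, had 1.32 and 0.13, a COC part of 0.73 and a dye part of 0.59. LMAN1, the cargo receptor for glycoproteins, had -0.41 and -0.52, a COC part of -0.47. The largest dye parts in the list were those of QSOX1 (0.61), SDF2L1 and KDELR1 (0.57). The median ratio of this list was 0.067 on array 1 and -0.21 on array 2, so its side depended on the array.

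Sensors and factors of the UPR had no common side. Of 10 measured (11 listed), 6 were below 0, with a median of -0.075, and 0 passed 1.5-fold. XBP1, the transcription factor made active by IRE1, had 0.020 on array 1 and -0.66 on array 2, a COC part of -0.32. ATF4 had a COC part of -0.21 with -0.036 and -0.39, and TRIB3, one of its targets, had -0.20 and 0.66, a COC part of 0.23. The largest dye parts were those of CREB3L2 (-0.48), TRIB3 (-0.43) and ATF6 (-0.40). For ER-associated degradation, 12 of 19 listed genes were measured, 6 were below 0, and the median was -0.00048. DERL1, a membrane component of that pathway, had 1.09 and 0.084, a COC part of 0.59, the only one of the 12 at or past 1.5-fold, and a dye part of 0.50. VCP, the ATPase that extracts substrates, had -0.52 and -0.099, a COC part of -0.31. UBE2J1 had 0.40 and 0.011, a COC part of 0.21, and SELS had the second largest dye part at -0.42.

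Markers of the cumulus and granulosa cells, the somatic cells of a COC, were on the same side as the ER genes. Of 15 measured markers (18 listed), 12 had a COC part below 0, with a median of -0.25 and a range of -1.28 to 0.32, and all 9 with the same sign on both arrays were on the COC4 side. TNFAIP6, which takes part in building the cumulus matrix, had the most negative value, with -0.68 and -1.87 on the arrays. The 3 markers above 0 were PTX3 (0.32, with 0.78 and -0.13 on the arrays), KITLG (0.13) and AMH (0.051). INHA and FST had dye parts of -1.83 and -1.74, larger than that of any chaperone. Oocyte markers were on the COC7 side in 9 of 13 cases (14 listed), where 6212 of 11938 named genes were. Their median was 0.088, with a range of -0.18 to 0.70 and a median dye part of -0.37. Signs were the same on both arrays for 5 of the 13, all on the COC7 side, and opposite for 8. Of 9 measured markers of theca, stroma and vessel (11 listed), 6 were below 0, with a median of -0.057 and a range of -2.13 to 0.10, where the lowest was RGS5. Of 4 blood and immune markers (6 listed), 1 was below 0, with a median of 0.025 and a range of -0.017 to 0.074. A different number of cumulus cells and a different RNA content per cell cannot be told apart in these data, and the part of either in the ER values was not tested.

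**Figure D2:**
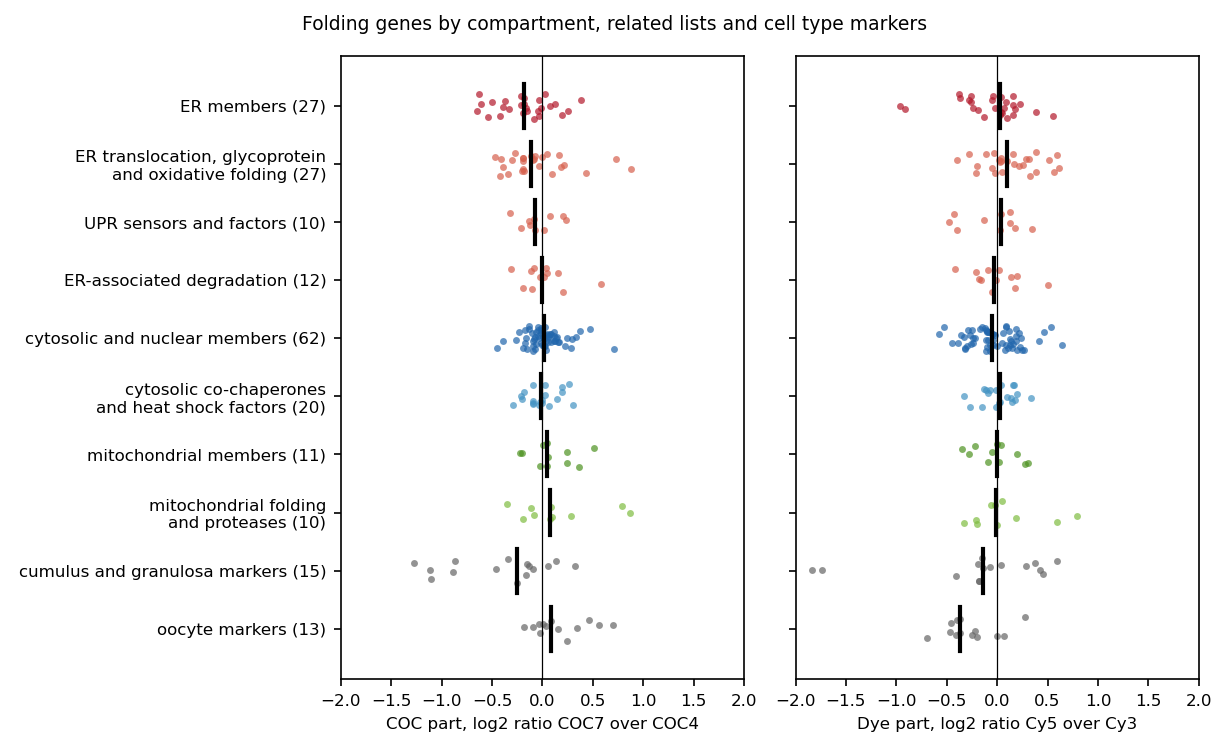
COC part (left, log2 ratio COC7 over COC4) and dye part (right, log2 ratio Cy5 over Cy3) of every measured gene in the 3 compartments of the folding genes, in 5 related lists and in 2 lists of cell type markers, 1 point per gene with the number of genes in brackets and the median as a black bar. The ER genes have a median COC part of -0.18, between the cumulus and granulosa markers at -0.25 and the list for ER translocation and glycoprotein folding at -0.11, and the oocyte markers have the lowest median dye part at -0.37.

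In most of the cytosolic HSP90 and HSP70 genes the dye part was larger than the COC part, and HSP90AB1 and HSPA2 were the exceptions. The dye part was also the larger one in most named genes, 7321 of 11938. HSP90AB1, the constitutive HSP90, had -0.039 on array 1 and -0.42 on array 2, a COC part of -0.23, the same side on both. HSP90AA1, the inducible form, had -0.40 and 0.32, a COC part of -0.042 and a dye part of -0.36. HSPA8 (HSC70), the constitutive HSP70, had -0.64 and 0.50, a COC part of -0.070 and a dye part of -0.57. The COC parts of the 5 cytosolic HSP70 genes lay between -0.081 for HSPA2, an HSP70 of germ cells with -0.12 and -0.038 on the arrays, and 0.059 for HSPA12A, with 0.28 and -0.16. HSPA14, found at ribosomes, had -0.26 and 0.28, and HSPA12B had -0.26 and 0.32, so both averaged close to 0 with dye parts of -0.27 and -0.29. HSPA2 was the only one of the 5 with the same sign on both arrays.

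The exchange factors of HSP70 were mixed in this respect. HSPH1, the cytosolic HSP110, had -0.54 and 0.52, a COC part of -0.0092 and a dye part of -0.53. HSPBP1 had -0.35 and 0.43, a COC part of 0.039 and a dye part of -0.39. In both genes the COC that carried Cy5 had the lower signal on either array. HSPA4 had -0.015 and 0.19, a COC part of 0.087. HSPA4L had 0.083 and 0.23, a COC part of 0.16, and was on the COC7 side on both arrays.

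TRiC, the ring that folds actin and tubulin, had 5 measured subunits whose COC parts lay between -0.059 and 0.11, with a median of -0.017. The array values were -0.095 and -0.023 for CCT7, -0.28 and 0.20 for CCT3, -0.28 and 0.25 for CCT2, 0.52 and -0.41 for CCT4, and 0.30 and -0.071 for TCP1. The signs of 4 of the 5 subunits differed between arrays, as did those of 7321 of 11938 named genes. Their dye parts were not alike, from -0.26 for CCT2 to 0.47 for CCT4, although the subunits belong to 1 complex.

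**Figure D3:**
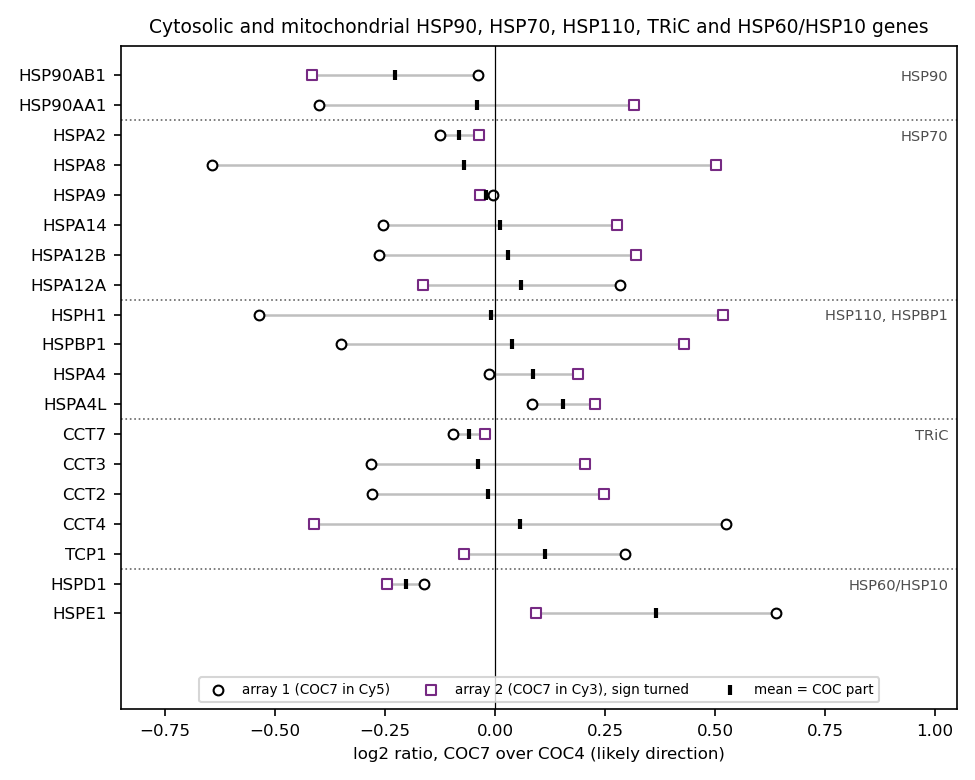
Log2 ratio of COC7 over COC4 on array 1 (circles) and on array 2 with the sign turned (squares), with their mean, the COC part (bars), for the cytosolic and mitochondrial genes of the HSP90, HSP70, HSP110, TRiC and HSP60/HSP10 families. Most bars lie near 0 with circle and square on opposite sides, as for HSPA8 (-0.64 and 0.50) and HSPH1 (-0.54 and 0.52), whereas both HSPD1 values are below 0 and both HSPE1 values above it.

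Of the small heat shock genes 1, measured by 1 probe, gave the clearest case of a ratio that followed the dye. HSPB1 (HSP27) had 0.64 on array 1 and -0.64 on array 2, a COC part of -0.0013 and a dye part of 0.64, the highest dye part of the 100 genes. HSPB8, which works with BAG3, had 0.071 and -0.42, a COC part of -0.18 and a dye part of 0.25, and HSPB6 had -0.31 and 0.19, a COC part of -0.061 and a dye part of -0.25. All 7 genes of this group, which includes the HSPB1-associated protein HSPBAP1, had opposite signs on the arrays. So did 7321 of 11938 named genes, and some of the 7, such as HSPB3 (-0.042 and 0.063), were near 0 on both arrays. Of the 4 BAG genes, which regulate HSP70, 3 had a COC part above 0, but 0 of these were above 0 on both arrays. BAG6, which guards tail-anchored membrane proteins, had 1.01 and -0.070, a COC part of 0.47 and a dye part of 0.54. BAG1 had -0.044 and -0.25, a COC part of -0.15, and BAG3 had 0.14 and -0.11, a COC part of 0.014 and a dye part of 0.12.

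The cyclophilins held the extremes of both sides. Of 8 genes 6 were below 0, with a median of -0.15, yet PPIE, a cyclophilin of the spliceosome, had the highest COC part of the 100 genes at 0.71 (1.63-fold higher in COC7), with 0.85 and 0.56 on the arrays and a dye part of 0.15. PPIC, placed in the ER with some uncertainty, was at the other end. PPIA (cyclophilin A), an abundant protein of the cytosol, had -0.57 and -0.33, a COC part of -0.45, and PPIH, also of the spliceosome, had -0.20 and -0.32, a COC part of -0.26. PPID (cyclophilin 40), a co-chaperone of HSP90, had -0.46 and 0.43, a COC part of -0.012 and a dye part of -0.44. PPIG, a nuclear cyclophilin, had 0.061 and -0.25, a COC part of -0.096 and a dye part of 0.16. The FKBP genes of the cytosol and nucleus were near 0, with 3 of 7 below 0 and a median of 0.029. The exception was FKBP3, a nuclear FKBP, with -0.34 and -0.44 and a COC part of -0.39. FKBP4 (FKBP52), a co-chaperone of HSP90 and steroid receptors, had -0.20 and 0.43, a COC part of 0.11 and a dye part of -0.32. FKBPL, another HSP90 co-chaperone, had 0.21 and 0.047, a COC part of 0.13.

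J proteins outside the ER were more often above 0 than below it, as were all named genes (6212 of 11938 above 0). In the cytosol and nucleus 15 of 23 were above 0, with a median of 0.060, and in mitochondria 5 of 6 were, with a median of 0.15. Among all 38 J proteins 23 were above 0 and 39.5% were below it, against 48% of all named genes below 0. The same sign on both arrays was found in 20 of the 38, and in 13 of the 23 of the cytosol and nucleus. DNAJC21, which takes part in ribosome biogenesis, had 0.50 and 0.23, a COC part of 0.37, and DNAJC7, a co-chaperone of both HSP70 and HSP90, had 0.60 and 0.063, a COC part of 0.33. Both were higher in COC7 on either array. DNAJB5 had 0.24 and -0.59, a COC part of -0.17 and a dye part of 0.42. Of the 38 genes, 26 had a dye part below 0, where 51.8% of all named genes did.

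Mitochondrial chaperones did not form a uniform group. HSPD1, the chaperonin HSP60, had -0.16 and -0.24, a COC part of -0.20, whereas HSPE1, its partner HSP10, had 0.64 and 0.094, a COC part of 0.37 with a dye part of 0.27. These genes are neighbours in the pig genome assembly Sscrofa11.1 and were the only pair of the 100 genes that are. HSPA9 (mortalin), the HSP70 of the matrix, had -0.0059 and -0.035, a COC part of -0.021, the smallest gap between arrays of the HSP70 genes. DNAJC11, a J protein of the mitochondrial membranes, had 0.29 and 0.72, a COC part of 0.51, the second highest of the 100 genes. DNAJC19, of the import motor, had -0.28 and -0.17, a COC part of -0.23. PPIF, the cyclophilin of the matrix, had -0.30 and 0.40, and FKBP8, of the outer membrane, had 0.35 and -0.27, so that COC parts of 0.053 and 0.041 stood beside dye parts of -0.35 and 0.31. Of 10 measured genes of a list for mitochondrial folding and proteases (14 listed), 4 were below 0, with a median of 0.078. GRPEL2, an exchange factor for mortalin, had 0.66 and 1.08, a COC part of 0.87. LONP1, a matrix protease, had 1.59 and -0.0035, a COC part of 0.79 with a dye part of 0.80, and HTRA2, another protease, had a dye part of 0.59 and TOMM20, an import receptor, one of -0.32. YME1L1 had -0.17 and -0.53, a COC part of -0.35. Among cytosolic co-chaperones and heat shock factors, 12 of 20 measured genes (23 listed) were below 0, with a median of -0.015, and 0 passed 1.5-fold. CDC37, which brings kinases to HSP90, had 0.44 and 0.16, a COC part of 0.30, NACA, which binds chains at the ribosome, had -0.27 and -0.31, a COC part of -0.29, and PDCL3 had 0.36 and 0.17, a COC part of 0.27. The largest dye parts in this list were those of VBP1 (0.33), SUGT1 (-0.33) and SGTA (-0.27).

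Taken over the 100 genes, the dye part was the larger one by its median size, but not in every class. The median size was 0.16 for the dye part and 0.12 for the COC part, against 0.13 and 0.085 over all named genes. For the ER genes the order was the opposite, with 0.16 for the dye part and 0.19 for the COC part, and for the 10 core ER genes it was 0.19 and 0.31. The mitochondrial genes had 0.198 and 0.203, and the cytosolic and nuclear genes 0.15 and 0.088. The dye part exceeded the COC part in 57 of the 100 genes, against 7321 of 11938 named genes. The dye part passed 1.5-fold in 3 genes, HSPA5, DNAJC10 and HSPB1, where 2.23% of all named genes did, and passed 2-fold in 0, where 0.293% did. Of the 100 genes 55 had a dye part below 0, near the 51.8% of all named genes. The dye part was negative for HSPA8, HSP90AA1 and HSPH1 of the cytosol, and positive for HSPB1, CCT4, BAG6 and DNAJB9. Pearson r between the turned ratios of both arrays was -0.13 across the 100 genes and -0.21 across the 27 ER genes.

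**Figure D4:**
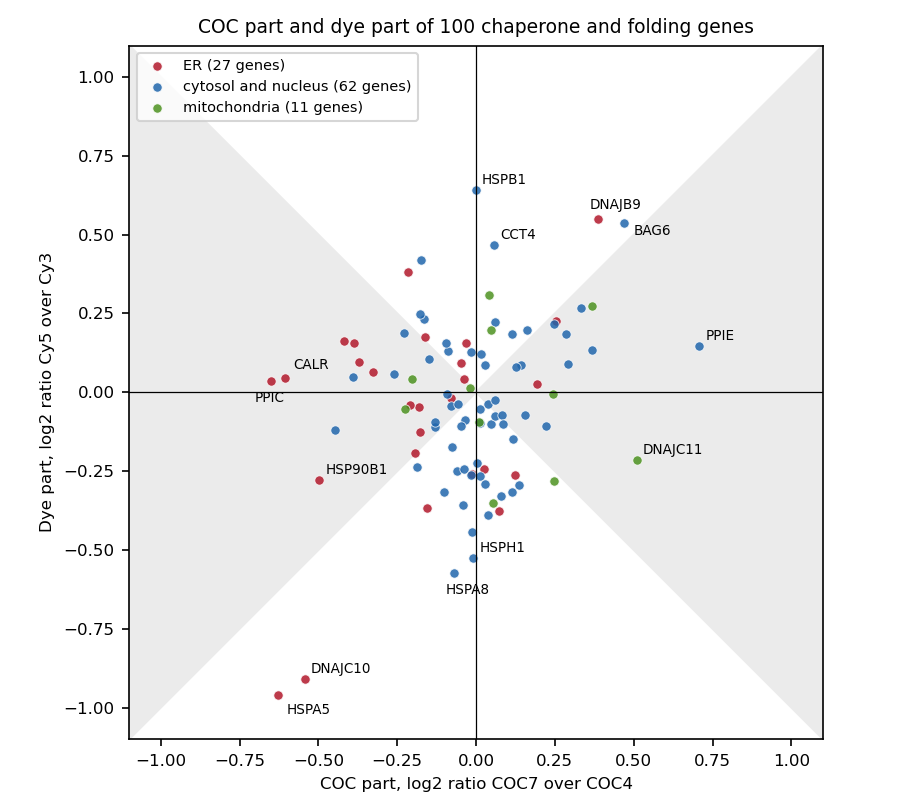
Dye part (y axis, log2 ratio Cy5 over Cy3) against COC part (x axis, log2 ratio COC7 over COC4) of the 100 genes, coloured by compartment, with genes named where either part is at least 0.45 from 0. In the grey areas the COC part is the larger one and both arrays have the same sign, as for 43 genes such as CALR, PPIC and PPIE, and HSPA5, DNAJC10 and HSPB1 lie outside them.

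Probes of the same gene gave a measure of spread between probes. They share both arrays and both RNAs, so this spread leaves out error from RNA handling and variation among complexes. Of the 100 genes, 33 had several probes (97 probes in all, at most 8 per gene) and 67 had 1. The pooled SD between probes of a gene was 0.24 on array 1, 0.23 on array 2, 0.13 in the COC part and 0.19 in the dye part, against 0.16 and 0.22 in the COC and dye parts for the 3325 named genes with several probes. In the COC part all probes were on the same side in 23 of the 33 genes, 8 with all above 0 and 15 with all below, and in the dye part all were in 18. These counts were not made for all named genes, so whether the 33 genes differ from them in this is not known. Of the 27 ER genes, 3 had a COC part above 0 by more than this SD of 0.13 and 16 one below 0 by more than it, against 12 and 10 of the 62 cytosolic and nuclear genes and 4 and 2 of the 11 mitochondrial ones. Over all named genes the shares were 17.6% above and 15.2% below, 32.8% in all.

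Both HSPA5 probes gave nearly the same COC part, -0.66 and -0.60, although their dye parts were -1.44 and -0.48. The turned ratios of the first were -2.09 on array 1 and 0.78 on array 2, and those of the second were -1.08 and -0.12, so 1 of the 2 BiP probes was on the COC4 side on both arrays. The 3 CALR probes had dye parts of -0.12, -0.16 and 0.42. All 6 of their array values were below 0, the nearest to it at -0.018 on array 1. Their COC parts were -0.73, -0.65 and -0.44. HSP90B1 had -0.55 and -0.45, and FKBP7 had -0.48 and -0.36. The 3 HSPD1 probes lay between -0.21 and -0.19. Agreement was poorer for FKBP11, whose probes had -0.70, -0.27 and -0.014, and for HSP90AA1, whose probes were on both sides at -0.25 and 0.16. The 8 PDIA6 probes ran from -0.19 to 0.035, and the BAG6 probes had 0.23 and 0.70. Taken singly, 8 of the 164 probes had a COC part past 1.5-fold, where 1.7% of all probes did, and 0 passed 2-fold, where 0.174% did. They were the PPIE probe and 1 BAG6 probe on the COC7 side, and both HSPA5 probes, 2 of 3 CALR probes, 1 of 3 FKBP11 probes and the PPIC probe on the COC4 side. The dye part passed 1.5-fold in 8 probes, where 2.8% of all probes did, and 2-fold in 1, an HSPA5 probe, where 0.283% did. On array 1 alone 20 of the 164 probes passed 1.5-fold, against 7.01% of all probes, and on array 2 alone 16 did, against 4.91%. The PPIC probe and 1 CALR probe passed it on each array, against 0.395%. Whether the probes of a gene overlap on its transcript was not analysed here.

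**Figure D5:**
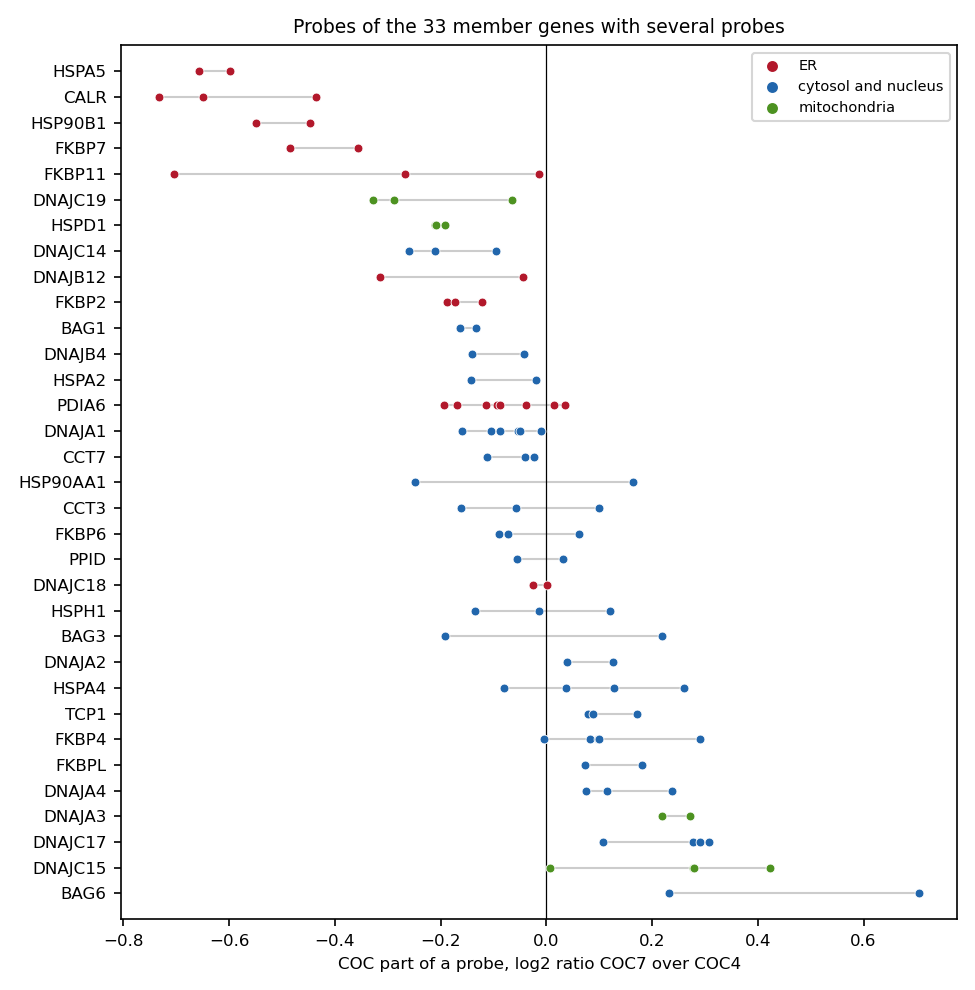
COC part of each probe (log2 ratio COC7 over COC4) for the 33 genes with several probes, 1 row per gene ordered by the mean and coloured by compartment, with a grey line over the range of the probes. The probes of HSPA5, CALR, HSP90B1 and FKBP7 all lie below -0.35, whereas those of HSP90AA1 and HSPH1 lie on both sides of 0.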

How the data were processed

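Total RNA of each COC was amplified in rounds of T7 transcription, labelled with Cy3 and Cy5 and hybridized by the authors, who subtracted background in GenePix Pro, normalized the data and analysed them with limma in FlexArray. The deposited log2 ratios of 43794 probes per array were used. The log base was taken from fold lines in the study's plot of these arrays, and the method of normalization is not given in the sources used here. A further table of both arrays has 2 columns whose names match no sample label, and these were not used. The platform annotation gave 1 gene symbol to 18121 probes, none to 25673 and several to 0, and the probes of a symbol were averaged. All 100 symbols were found in the RefSeq table of Sscrofa11.1.

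Both arrays are 1 replicate, so values are described with no test. Counts used 1.5-fold, and 2-fold as a stricter limit. The members, gene lists and comparisons were chosen with earlier results of these data known. The genes named were all core ER, TRiC, HSP90, HSP70, HSP110 and HSP60/HSP10 genes. Of the DNAJ, FKBP, cyclophilin, HSPB and BAG families they were the 3 farthest on each side whose signs agreed between arrays and the 3 with the largest dye part, and of the related lists the 3 farthest from 0 in either part. HSPBP1 was given with HSP110. Alternatives were each array alone, centring on the median, removal of the median of each 500 consecutive probes, the median of a gene's probes, single probes and genes of certain location only. The scripts were tested on simulated data. Sequences were not used here. Precision is limited by the number of arrays. Python 3.11.15, numpy 2.4.6, pandas 2.3.3 and matplotlib 3.10.9 were used.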

Additional observations from a re-analysis of the deposited data

How the results depend on the processing

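With array 1 alone, array 2 alone, centring, removal of block medians, medians of probes, single probes and genes of certain location, the median COC part of the ER genes stayed below 0, from -0.25 to -0.13, and the ER minus cytosolic difference lay between -0.21 and -0.18. For the 10 core ER genes alone, an alternative chosen after the data had been seen, these values were -0.26 and -0.27. The median of the cytosolic and nuclear genes changed sign, with -0.040 on array 1 alone, and so did that of the mitochondrial genes, with -0.0059. Median dye parts were near 0 and not stable in sign: that of the ER genes was -0.0026 after removal of block medians, and that of the mitochondrial genes was 0.015 with medians of probes and -0.053 with certain locations. That of the cytosolic and nuclear genes stayed below 0, at -0.019 after removal of block medians. Of the 100 genes 11 passed 1.5-fold on array 1 alone and 6 on array 2 alone, against 4 in the COC part, 0 at 2-fold and 1 when 1.5-fold was asked of each array. The shares of all named genes were 6.61%, 4.11%, 1.93%, 0.151% and 0.41%, in the same order. Of the 164 probes 20 passed on array 1 alone and 16 on array 2 alone, against 8 in the COC part, with 0 at 2-fold and 2 on each array. The shares of all probes were 7.01%, 4.91%, 1.7%, 0.174% and 0.395%, in the same order. Of the 59 named genes, the sign of 14 turned on array 1 alone and of 17 on array 2 alone. Those with a COC part beyond the SD between probes of a gene (0.13) were, on array 1, FKBP10 (0.17), DNAJB5 (0.24) and HSPB8 (0.071), and, on array 2, HSPA5 (0.33), DNAJC10 (0.37), PDIA4 (0.21), DNAJB9 (-0.16) and BAG6 (-0.070). These turns follow from the dye part, which a single array cannot separate, so no dye part of an array alone was computed. Centring, removal of block medians and medians of probes moved none of the COC parts of the 59 named genes by more than that SD. They moved none of the dye parts by more than the larger SD between probes in the dye part, 0.19. With medians of probes the dye part of CALR turned from 0.047 to -0.12. Removal of block medians turned the sign of 5 COC parts, all within the SD of 0.13. It left PPIC just short of 1.5-fold, at -0.583. The second deposited table was not run as an alternative, since its columns could not be assigned. No paired analysis was possible because each COC is 1 sample. Signal over background was not analysed here.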
